A study of Mus musculus with 36 samples.

Results

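Skeletal muscle contractile genes were examined in 36 mouse mammary tumors. A list of 38 genes of the sarcomere, its calcium supply and its energy metabolism was given by name, and 37 of them had a probe set with 1 gene symbol among the 12394 genes of the arrays. *Mybpc2*, a fast myosin binding protein, was the member not analysed here. The tumors grew from 67NR or 66cl4 cells, which are mouse breast cancer cell lines, and each line had been transduced by retrovirus with control or BPTF short hairpins (BPTF KD). Cells were injected into the fourth mammary gland of BALB/c mice, an immune competent strain, or of NOD/SCID/Ifrg2r -/- (NSG) mice, a strain without T cells, B cells or NK cells. The mice were females of 6 to 8 weeks. Tumors were collected after 21 days (67NR) or 28 days (66cl4), and fewer 66cl4 than 67NR cells had been injected, so that cell line, time and cell number cannot be told apart. Each line and host had 3 control and 6 BPTF KD tumors, giving 8 groups and 9 tumors for each line and host. The hairpin of a single tumor was not used here. No comparison between groups was tested on a mean over the members, because levels differed between tumors of the same group. A rule for single outlying tumors within groups, given near the end, was also applied to that mean.

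Striated muscle contracts when myosin heads of the thick filament pull on actin of the thin filament. Calcium released from the sarcoplasmic reticulum binds troponin and opens the actin sites, and Z discs anchor the thin filaments at each end of the sarcomere. Fast fibres and slow fibres carry different forms of myosin, troponin and calcium pump. The mammary fat pad lies between skin and body wall muscle, and a thin muscle sheet runs beneath the skin of mice.

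All values are log2 RMA levels, 1 probe set per gene, and levels of different probe sets cannot be ranked against each other. RNA came from whole tumor pieces, so that fewer muscle cells and less RNA per muscle cell cannot be told apart. Array medians ran from 7.03 to 7.21. *Bptf*, the targeted gene, was at 9.50, 10.61 and 9.89 in 66cl4 BALB/c controls, with a lowest, median and highest level of 8.68, 8.89 and 9.12 in the BPTF KD tumors, and these groups did not overlap. In 67NR BALB/c it was at 9.73, 9.76 and 10.31 in controls and at 8.34, 9.97 and 10.68 in tumors labelled BPTF KD, so that the groups overlapped there. Limma differences of *Bptf* were -1.08 ± 0.20 (± SE, adjusted p = 0.0628), -0.06 ± 0.45 (adjusted p = 0.985), -0.33 ± 0.12 (adjusted p = 0.584) and -0.27 ± 0.22 (adjusted p = 0.644) in 66cl4 BALB/c, 67NR BALB/c, 66cl4 NSG and 67NR NSG, in that order. BPTF KD therefore names the label of a tumor throughout. As a reference for dim probe sets, 19 genes of tissues that were not sampled (eye, testis, pancreas and others) had median levels of 3.04 to 6.62 over all tumors. In 66cl4 NSG, 31 of 37 members had a median at or under the highest such gene, and in 66cl4 BALB/c 9 of 37 did.

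The promoters of 4 members are shown because over all tumors the first 3 followed the other members and the last did not. Pearson correlations with the mean of the other members were 0.955 (*Acta1*), 0.955 (*Mylpf*), 0.972 (*Myh4*) and -0.32 (*Tpm2*). Within NSG tumors *Myh4* stayed at 3.38 to 4.39, while *Mylpf* ran from 5.06 to 9.75 and *Acta1* from 5.14 to 8.61. The promoters describe the genes only. Each run is the 250 bases before the gene start of RefSeq (GRCm38.p6), 5′ to 3′ on the strand of the gene, with the letters CAGCTG in capitals. CAGCTG is a core sequence of E boxes, the class of element bound by myogenic bHLH factors, and it reads the same on both strands.
Acta1, chr8:123894776-123895025, - strand: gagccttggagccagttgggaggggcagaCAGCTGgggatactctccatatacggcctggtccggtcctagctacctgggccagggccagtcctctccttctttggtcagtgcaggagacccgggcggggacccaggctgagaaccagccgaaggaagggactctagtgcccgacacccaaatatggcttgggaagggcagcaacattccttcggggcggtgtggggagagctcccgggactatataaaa
Mylpf, chr7:127211358-127211607, + strand: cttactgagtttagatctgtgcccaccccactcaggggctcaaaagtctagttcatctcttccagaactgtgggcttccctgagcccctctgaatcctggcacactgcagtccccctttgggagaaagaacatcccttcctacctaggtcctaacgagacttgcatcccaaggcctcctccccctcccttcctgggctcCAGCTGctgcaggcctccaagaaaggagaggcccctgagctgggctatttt
Myh4, chr11:67237562-67237811, + strand: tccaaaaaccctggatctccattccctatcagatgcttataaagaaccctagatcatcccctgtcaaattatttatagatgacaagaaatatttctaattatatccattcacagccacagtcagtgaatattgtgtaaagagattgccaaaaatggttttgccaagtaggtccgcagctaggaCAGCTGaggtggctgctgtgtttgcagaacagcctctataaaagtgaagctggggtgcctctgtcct
Tpm2, chr4:43523555-43523804, - strand: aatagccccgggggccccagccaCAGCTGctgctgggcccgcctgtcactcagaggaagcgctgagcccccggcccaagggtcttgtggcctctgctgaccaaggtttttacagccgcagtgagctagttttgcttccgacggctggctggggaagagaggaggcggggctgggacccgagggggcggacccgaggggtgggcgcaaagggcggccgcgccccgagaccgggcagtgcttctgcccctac
The letters started 221, 51, 67 and 227 bases before the gene start, in the order shown. Over all genes with a window of 250 bases before to 50 after the start, 18.3% (4944 of 27025) held CAGCTG. A window was given for 29 of the 37 members (78.4%), too few for a comparison of the members with all genes, which is therefore not made.

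Members rose and fell together from tumor to tumor. Over the 36 tumors, the Pearson correlation of a member with the mean of the other members had a median of 0.954, and 26 of 37 members had a correlation of at least 0.9. The tumors share arrays of 1 series and 4 combinations of line and host, so that these correlations are a description without a test. Members ranged over 1.18 (*Myl3*) to 8.84 (*Tnnc2*) log2 units between the lowest and highest tumor, with a median of 4.65, against a median of 1.33 over all genes. Of the 100 genes with the widest range on the arrays, 14 were members.

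The mean level over the 37 members lay between 5.69 and 6.85 in the 18 NSG tumors. It lay between 5.88 and 6.83 in 8 of the 9 67NR BALB/c tumors, and at 10.0 in the other one, BPTF KD replicate 3. In 66cl4 BALB/c it was 8.27, 9.34 and 7.62 in the controls and ran from 6.53 (replicate 2) to 9.47 (replicate 6) in the BPTF KD tumors. The 66cl4 BALB/c tumors therefore stood above the 66cl4 NSG tumors except for BPTF KD replicate 2, which lay below the highest NSG tumor. The heat map of members by tumor shows the other 8 66cl4 BALB/c tumors and the single 67NR tumor as the raised columns.

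**Figure D1:**
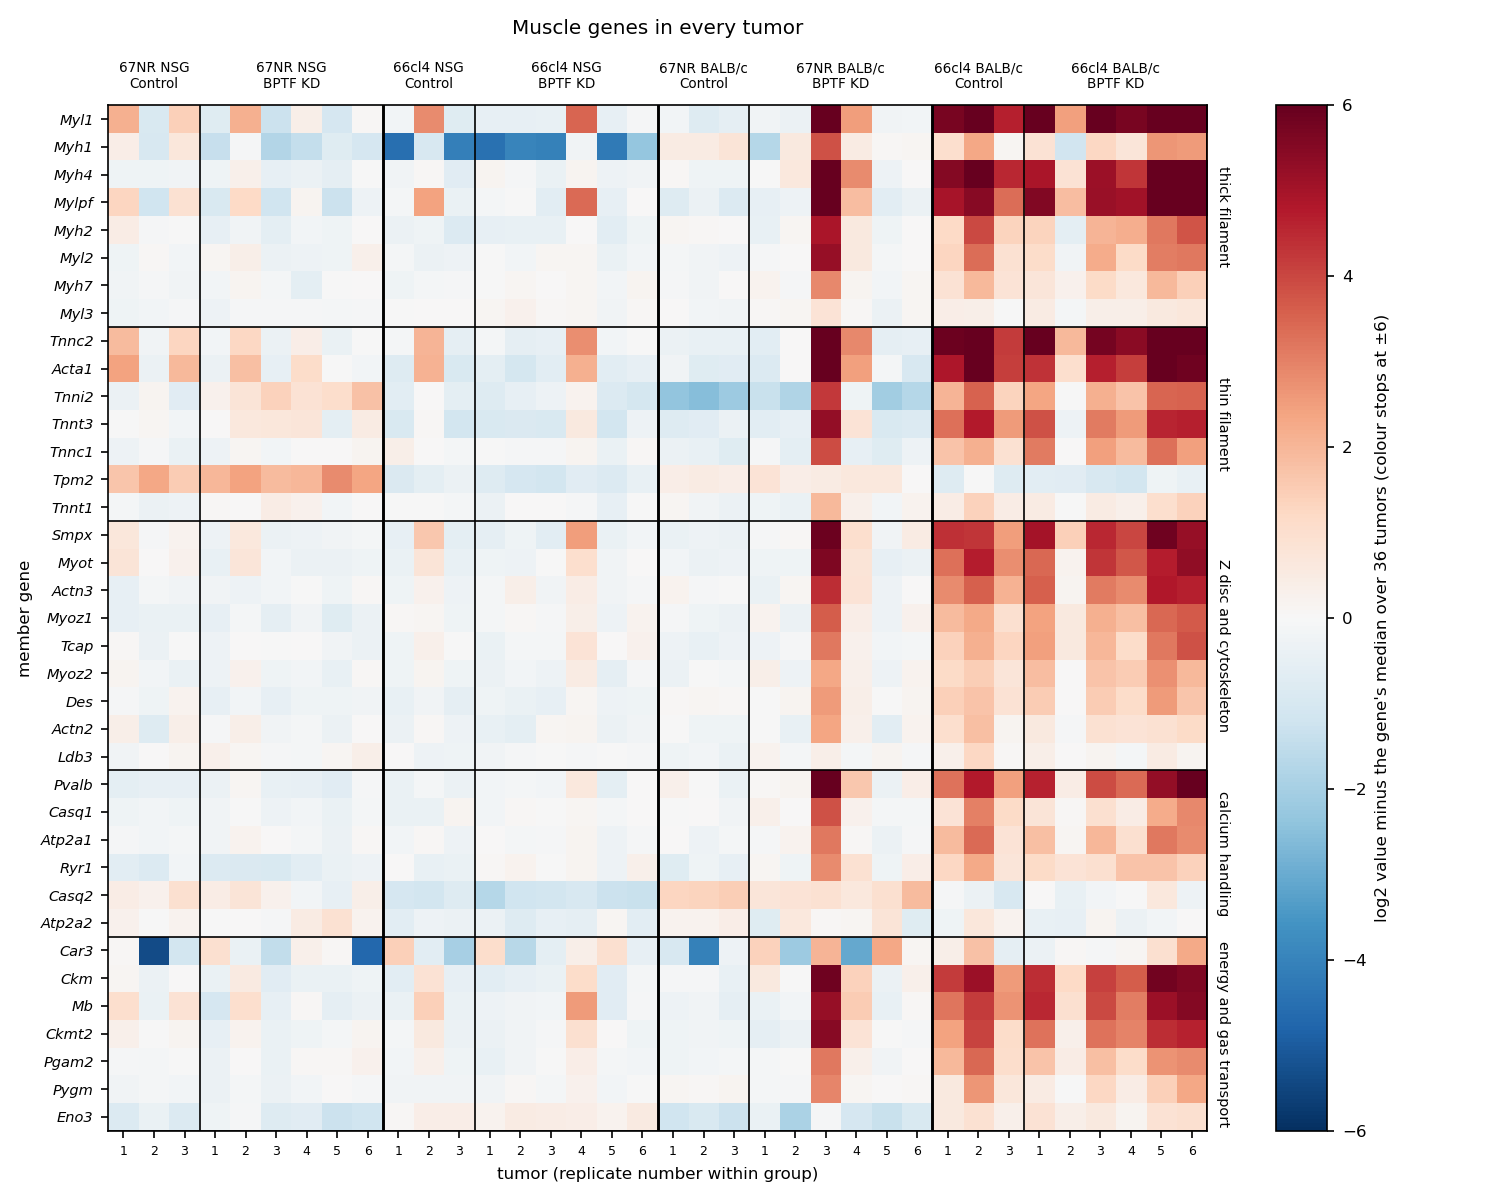
Level of each of the 37 members (rows, by role) in each of the 36 tumors (columns, by group and replicate), drawn as the log2 value minus the median of that gene over all tumors. Red columns fill 66cl4 BALB/c apart from BPTF KD replicate 2, and 67NR BALB/c BPTF KD replicate 3, where 31 of 37 members lay more than 1 log2 unit above their median.

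Comparisons within a line or within a host were added after the values had been seen, because the combinations differed. The first asked how the 9 66cl4 tumors grown in BALB/c mice differed from the 9 66cl4 tumors grown in NSG mice. Of 37 members, 34 were higher in BALB/c and 0 were lower by limma (adjusted p under 0.05), with a median log2 difference of 2.01, while 16.1% of all genes were called higher. The 3 members that did not pass were *Tpm2*, *Eno3* and *Car3*. For 29 members at least 8 of the 9 BALB/c tumors lay above every 66cl4 NSG tumor, a pattern held by 3.16% of all genes. For 6 members (*Ckm*, *Myh4*, *Myh7*, *Myoz1*, *Pgam2* and *Ryr1*) all 9 did, against 1.52% of all genes. Without 66cl4 NSG Control replicate 2 and BPTF KD replicate 4 the count was 32, and without 66cl4 BALB/c BPTF KD replicate 2 it was 34. P-values here reflect the spread between tumors.

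All 8 thick filament members were higher in 66cl4 BALB/c than in 66cl4 NSG tumors. *Myl1*, an essential light chain of fast myosin and the thick filament member with the widest range, was at 11.23, 12.10 and 10.21 in BALB/c controls, and its lowest, median and highest level in BPTF KD tumors was 8.01, 11.75 and 13.01. In 66cl4 NSG it was at 5.40, 8.37 and 4.84 in controls and at 5.05, 5.09 and 9.07 in BPTF KD tumors. The lowest BALB/c tumor lay below the highest NSG tumor, and the other 8 lay above all of them. The log2 difference of *Myl1* was 5.29 ± 0.73 (± SE, 39-fold, adjusted p = 7.02e-05).

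*Myh4*, the heavy chain of the fastest (IIb) fibres, was at 9.56, 11.37 and 8.59 in 66cl4 BALB/c controls and at 4.93, 9.09 and 10.80 (lowest, median, highest) in BPTF KD tumors. All 9 66cl4 NSG tumors lay at 3.38 to 4.24, so that the hosts did not overlap. With 5.46 ± 0.62 (43.9-fold, adjusted p = 9.61e-06) it had the largest host difference among members in 66cl4. The heavy chains of the other fast fibres, *Myh1* (IIx) and *Myh2* (IIa), differed by 4.35 ± 0.69 (adjusted p = 0.000239) and 2.49 ± 0.49 (adjusted p = 0.00125). *Mylpf*, the regulatory light chain of fast fibres, differed by 4.34 ± 0.69 (adjusted p = 0.000244). Slow forms were also called. *Myl2*, the slow and ventricular regulatory light chain, differed by 1.98 ± 0.42 (adjusted p = 0.00211) and *Myh7*, the slow heavy chain, by 1.17 ± 0.20 (adjusted p = 0.000468). The smallest was *Myl3*, the slow essential light chain, at 0.29 ± 0.10 (adjusted p = 0.0372), a call that was kept in 9 of 18 fits that each left out 1 tumor. The *Myl3* probe set read here, its brightest, ran from 6.17 to 7.35. Other probe sets of *Myl3*, of a kind that can bind related transcripts, ran from 5.2 to 6.74 and from 4.37 to 7.35.

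Of 7 thin filament members, 6 were higher in 66cl4 BALB/c. *Tnnc2*, the calcium sensor of fast troponin, had the widest range of all members. Its BALB/c controls were at 10.92, 12.25 and 9.25, and the BPTF KD tumors at 7.01, 10.95 and 12.30. The NSG controls were at 4.91, 7.07 and 4.52 and the NSG BPTF KD tumors at 4.51, 4.89 and 7.86. Only BPTF KD replicate 2 of the BALB/c tumors fell within the NSG range. The difference was 5.29 ± 0.69 (39.3-fold, adjusted p = 4.02e-05).

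*Acta1*, skeletal muscle actin, was at 11.03, 12.67 and 10.34 in the BALB/c controls and at 7.23, 10.70 and 12.37 in BPTF KD tumors, against 5.43, 8.29 and 5.28 and 5.14, 5.59 and 8.35 in NSG mice. It differed by 4.79 ± 0.67 (27.7-fold, adjusted p = 8.23e-05). *Tnnt3* and *Tnni2*, the tropomyosin-binding and inhibitory subunits of fast troponin, differed by 3.91 ± 0.56 and 2.72 ± 0.42 (adjusted p = 9.46e-05 and 0.000216). Their slow partners *Tnnc1* and *Tnnt1* differed by 1.88 ± 0.34 and 0.78 ± 0.18 (adjusted p = 0.000702 and 0.00308). *Tpm2*, a tropomyosin that skeletal muscle shares with smooth muscle and other cells, differed by 0.09 ± 0.14 (adjusted p = 0.653).

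**Figure D2:**
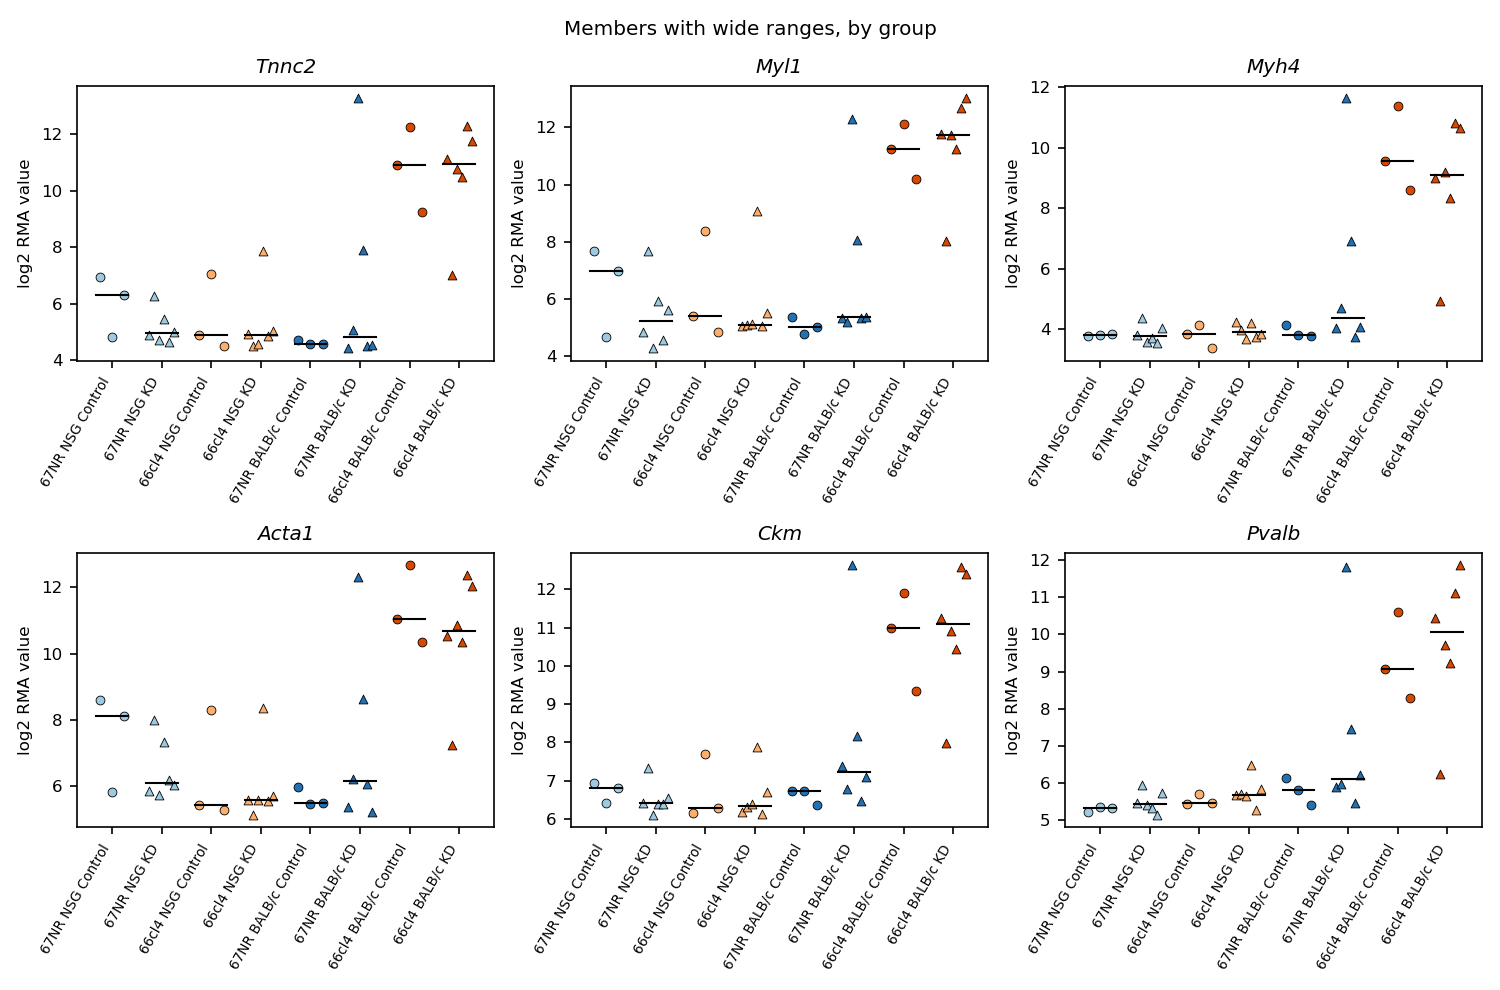
Log2 RMA level of 6 members with wide ranges in the 8 groups, 1 point per tumor (circles control, triangles BPTF KD) with the group median as a bar. 66cl4 BALB/c points stand high apart from 1 BPTF KD tumor, and a single 67NR BALB/c BPTF KD tumor reaches or passes them.

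All 9 Z disc and cytoskeleton members were higher in 66cl4 BALB/c. *Smpx*, a small protein of the muscle membrane skeleton and the widest of this role, was at 8.14, 8.04 and 6.26 in BALB/c controls and at 5.20, 8.50 and 9.58 in BPTF KD tumors. In NSG it was at 3.25, 5.38 and 3.19 in controls and at 3.15, 3.44 and 6.29 in BPTF KD tumors, a lower range that 2 of the 9 BALB/c tumors reached. The difference was 3.89 ± 0.59 (adjusted p = 0.000164). *Myot* (myotilin, a Z disc protein) differed by 3.59 ± 0.54 and *Actn3*, the alpha-actinin of fast fibres, by 3.05 ± 0.48 (adjusted p = 0.000149 and 0.000226). *Myoz1* and *Myoz2*, calcineurin-binding Z disc proteins of fast and of slow or cardiac fibres, differed by 2.03 and 1.51. *Tcap* (telethonin, which caps titin) differed by 1.85 and *Des* (desmin, the muscle intermediate filament) by 1.70. *Actn2*, the alpha-actinin of all sarcomeres, differed by 1.07 and *Ldb3*, a Z disc adaptor, by 0.48. These last 6 had adjusted p-values between 8.77e-05 and 0.00904. The *Ldb3* probe set read here was the brightest of 3 and ranged over 1.63, while the other 2 ran from 3.87 to 8.69 and from 4.02 to 7.46.

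All 6 calcium handling members were higher in 66cl4 BALB/c. *Pvalb* (parvalbumin, the calcium buffer of fast fibres) was at 9.08, 10.60 and 8.29 in BALB/c controls and at 6.25, 10.07 and 11.87 in BPTF KD tumors. In NSG controls it was at 5.42, 5.69 and 5.45 and in NSG BPTF KD tumors at 5.26, 5.69 and 6.47, which overlapped the BALB/c tumors at BPTF KD replicate 2 alone. Its difference was 3.90 ± 0.57 (15-fold, adjusted p = 0.000113). *Atp2a1*, the calcium pump of fast fibres, differed by 2.02 ± 0.38, *Casq1*, the calcium store protein of fast fibres, by 1.55 ± 0.36, and *Ryr1*, the calcium release channel, by 1.46 ± 0.19 (adjusted p = 0.00096, 0.00407 and 3.19e-05). *Casq2*, the slow and cardiac store protein, differed by 0.85 ± 0.15 (adjusted p = 0.000657). *Atp2a2*, the pump of slow fibres, heart and most other cells, differed by 0.44 ± 0.14 (adjusted p = 0.0259), and this call was lost without 66cl4 BALB/c Control replicate 2 or replicate 3 or 66cl4 NSG Control replicate 1.

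Of 7 members of energy and gas transport, 5 were higher in 66cl4 BALB/c. *Ckm*, the creatine kinase of muscle, was at 10.99, 11.91 and 9.34 in controls and at 7.99, 11.09 and 12.58 in BPTF KD tumors. The 66cl4 NSG tumors lay at 6.13 to 7.89, below every BALB/c tumor. It differed by 4.18 ± 0.54 (18.2-fold, adjusted p = 3.92e-05). *Mb* (myoglobin, which binds oxygen) differed by 3.41 ± 0.58 and *Ckmt2*, the mitochondrial creatine kinase of striated muscle, by 2.79 ± 0.50 (adjusted p = 0.000451 and 0.000711). The glycolytic enzyme *Pgam2* and the glycogen phosphorylase *Pygm* differed by 2.01 ± 0.33 and 1.27 ± 0.30 (adjusted p = 0.000351 and 0.00487). *Eno3* (muscle enolase) and *Car3* (a carbonic anhydrase of slow muscle and fat cells) differed by 0.28 ± 0.12 and 0.75 ± 0.52 (adjusted p = 0.0878 and 0.29). The call of *Eno3* was gained without 66cl4 BALB/c BPTF KD replicate 4 or Control replicate 3.

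By fibre form, all 12 fast members and all 8 slow or cardiac members measured were called higher in 66cl4 BALB/c. The median log2 difference was 3.48 over the fast forms and 1.01 over the slow or cardiac forms, beside 2.01 over all members. Single values of the forms overlapped, as with the slow *Myl2* (1.98) and *Tnnc1* (1.88) beside the fast *Casq1* (1.55) and *Atp2a1* (2.02), and the forms were not tested against each other.

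In 67NR tumors the host difference was smaller. BALB/c against NSG within 67NR called 1 member higher (*Casq2*, 0.80 ± 0.19, adjusted p = 0.00861) and 1 lower (*Tpm2*, -1.58 ± 0.15, adjusted p = 5.13e-06), with a median log2 difference of 0.27. Of all genes 10.3% were called higher and 8.08% lower. 1 tumor carried much of the spread. Without 67NR BALB/c BPTF KD replicate 3 the median was -0.02 and 6 members were called, the 4 more being *Des*, *Pygm*, *Tnnc1* and *Tnni2*, the last by -2.27. *Myh4* differed by 1.05 ± 0.84, *Tnnc2* by 0.02 ± 0.99 and *Acta1* by -0.55 ± 0.83 with all tumors, and *Tnni2* by -1.80 ± 0.68 (adjusted p = 0.0769). The first 3 had adjusted p-values of 0.425, 0.992 and 0.697.

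The difference of the host effect between lines was then tested itself, as 66cl4 minus 67NR in 1 limma fit of 36 tumors. It was above 0 for all 37 members (median 1.74) and was called for 23 of them (adjusted p under 0.05). Of all genes, 7.41% were called in this direction. *Acta1* had the largest difference at 5.34 ± 1.12 (adjusted p = 0.00159), followed by *Tnnc2* at 5.27 ± 1.27 and *Myl1* at 5.25 ± 1.21 (adjusted p = 0.00506 and 0.00363). *Tnni2* was at 4.51 ± 0.84 and *Myh4* at 4.41 ± 1.09 (adjusted p = 0.000513 and 0.00653). The count fell to 14 without 66cl4 BALB/c Control replicate 2 and rose to 33 without 67NR BALB/c BPTF KD replicate 3. *Casq2*, at 0.05 ± 0.25 (adjusted p = 0.911), was among the members that did not pass.

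**Figure D3:**
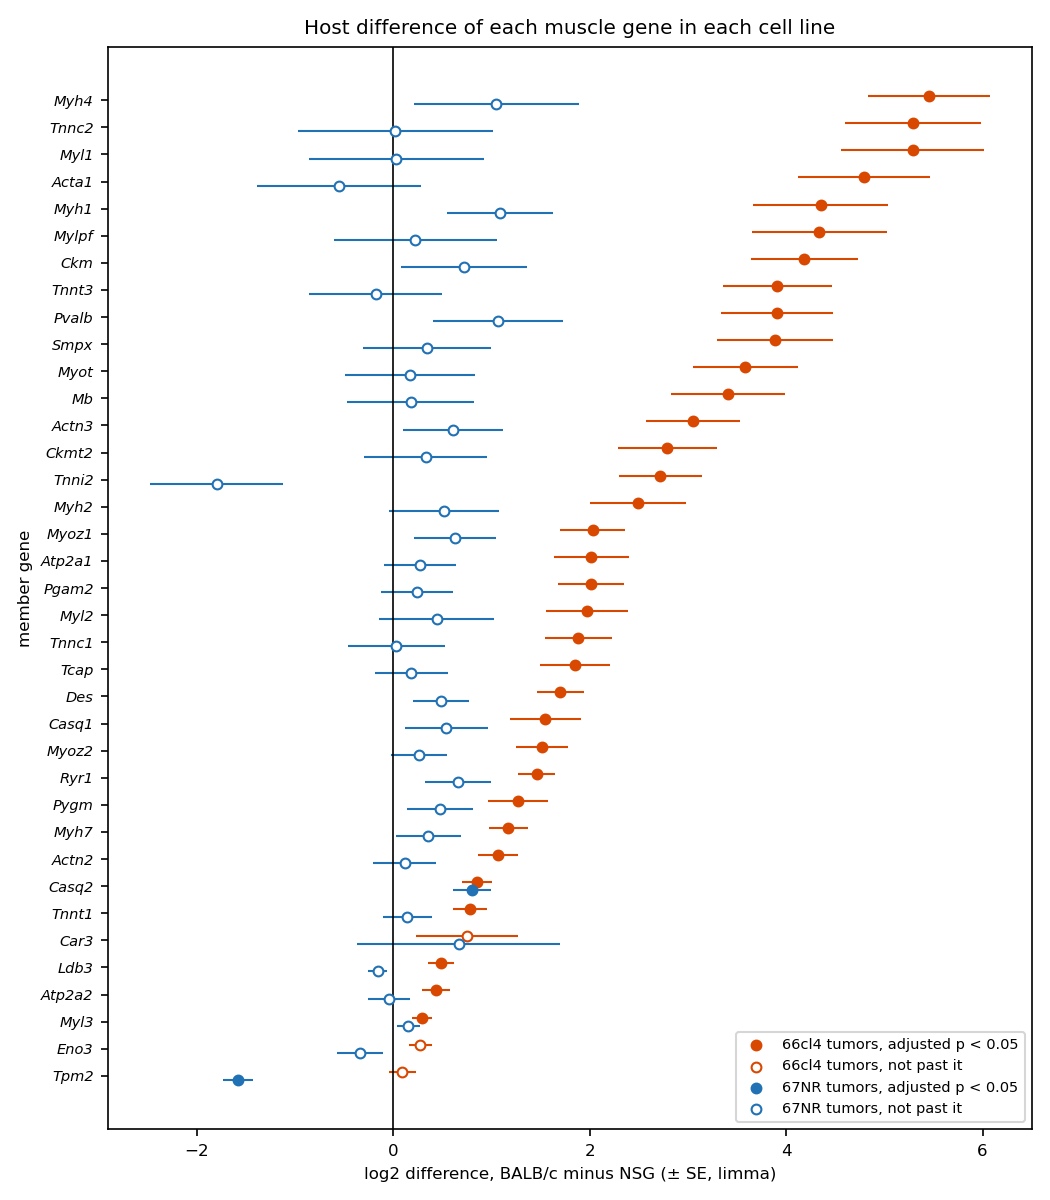
Log2 difference between BALB/c and NSG tumors (± SE, limma) of each member, for 66cl4 (orange) and 67NR (blue), with filled points past an adjusted p of 0.05. In 66cl4, 34 of 37 members lie to the right of 0 and pass, while in 67NR 2 pass and most error bars cross or lie near 0.

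Between lines within BALB/c mice, 24 members were lower and 2 higher in 67NR than in 66cl4, with a median log2 difference of -1.75. Of all genes, 13.5% were called lower and 13% higher. *Myl1* was at 5.37, 4.76 and 5.03 in 67NR controls and at 5.18, 5.36 and 12.28 in BPTF KD tumors, of which the highest was replicate 3. Apart from that tumor, replicate 4 at 8.07 passed the lowest 66cl4 tumor, BPTF KD replicate 2, and the others lay below all 66cl4 BALB/c tumors. Its difference was -5.30 ± 0.93 (adjusted p = 0.000412), and those of *Tnnc2*, *Mylpf* and *Acta1* were -5.06 ± 1.12, -4.63 ± 0.90 and -4.48 ± 0.92 (adjusted p = 0.00266, 0.000999 and 0.00157). *Eno3* (-1.65 ± 0.21, adjusted p = 2.26e-05) was the 1 member with all 9 66cl4 above all 9 67NR BALB/c tumors, a pattern of 2.99% of all genes. Without 67NR BALB/c BPTF KD replicate 3 and 66cl4 BALB/c BPTF KD replicate 2, the calls were 32 lower and 2 higher.

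Within NSG mice the lines differed in another way. 7 members were higher and 4 lower in 67NR, with a median of -0.03, and 24.5% of all genes were called higher and 26.6% lower. Higher in 67NR were *Tpm2*, *Myh1*, *Casq2*, *Tnni2*, *Tnnt3*, *Atp2a2* and *Myh2*, from 2.74 ± 0.15 (adjusted p = 8.94e-11) down to 0.35 ± 0.12 (adjusted p = 0.0192). Lower were *Eno3*, *Ryr1*, *Myoz1* and *Myl3*, from -1.03 ± 0.15 (adjusted p = 1.67e-05) to -0.17 ± 0.07 (adjusted p = 0.0378). Both shares of the 37 members were below those of all genes.

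Averaged over both hosts, 67NR against 66cl4 gave 24 members lower and 3 higher (median -1.0; 25.2% and 24.2% of all genes). The 3 higher were *Tpm2* at 1.91, *Casq2* at 1.47 and *Atp2a2* at 0.40, and the call of *Atp2a2* was lost with the mean of all its probe sets. Averaged over both lines, BALB/c against NSG gave 31 members higher and *Tpm2* lower (median 1.13; 15.8% and 12.8% of all genes). The averages cover combinations that differed from each other as given above.

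Markers of other cell types differed between the same 66cl4 tumors. The mean level of 6 T cell genes was 5.21 to 5.52 in 66cl4 NSG and 5.96 to 7.55 in 66cl4 BALB/c, and 5 of the 6 were called higher in BALB/c. *Cd3g*, a chain of the T cell receptor complex, lay at 4.24 to 4.77 and 6.61 to 10.15. Within 66cl4, 15.1% of all genes were called lower in BALB/c and 16.1% higher. Of 10 white fat genes 4 were lower and 0 higher, with a mean level of 6.95 to 8.59 in NSG and 6.48 to 7.46 in BALB/c. Of 9 fibroblast genes 4 were higher and 1 lower, at 9.18 to 10.36 in NSG and 10.01 to 10.63 in BALB/c. T cell genes differed between hosts in 67NR as well (6 of 6 higher in BALB/c, 5.12 to 5.46 against 6.08 to 10.05), where 2 of the 37 muscle members were called. The 3′ minus 5′ *Gapdh* control signal, a sign of RNA quality, was -0.12 to 0.06 in 66cl4 NSG, 0.14 to 0.33 in 66cl4 BALB/c, -0.01 to 0.17 in 67NR NSG and 0.16 to 0.52 in 67NR BALB/c. The same signal of actin overlapped between hosts, at 0.94 to 1.48, 0.8 to 1.56, 0.81 to 1.45 and 0.73 to 2.11 in the same order. The part of these values in the muscle result was not tested.

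Single tumors stood apart within their groups. Counts of members for which a tumor was the highest or lowest of its group describe the members only. The share of all genes in such a position was not counted. In 67NR BALB/c BPTF KD replicate 3, 33 of 37 members were above the other 5 tumors of the group, and 36 of 37 were above the 66cl4 BALB/c median. *Tnnc2* reached 13.27 there, 8.22 above its median over all tumors, against 4.43 to 7.91 in the other 5. *Ttn* (titin, the spring of the sarcomere, no member) was at 9.91, its highest value of all 36 tumors. Of all genes on that array, 8.56% lay more than 1 log2 unit above their median, against 31 of 37 members. Other lists moved in this tumor too. The mean level of the T cell genes (10.05), of 5 peripheral nerve genes (8.59) and of 6 endothelial genes (8.16) was the highest of all 36 tumors, against at most 9.07, 8.12 and 8.02 in the others. That of 6 proliferation genes (9.85) and of 8 mammary epithelial genes (5.23) was the lowest, against at least 10.19 and 5.41 in the others. Within the epithelial list *Cdh1* went the other way, with its highest value of all 36 tumors (6.76) in this tumor. *Cd3g* was at 12.80 and *Cd8b1* at 10.39. The part of these cell types in the muscle values was not tested. Replicate 4 of this group followed in several members, with *Acta1* at 8.64, *Myl1* at 8.07 and *Myh4* at 6.92.

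66cl4 BALB/c BPTF KD replicate 2 was the lowest of its group in 33 of 37 members. It had *Myl1* at 8.01, *Mylpf* at 8.17 and *Myh4* at 4.93, while the other 5 BPTF KD tumors were at 11.26 to 13.01, 11.36 to 12.83 and 8.35 to 10.80. Among the 3 controls, replicate 2 was the highest in 34 of 37 members and replicate 3 the lowest in 32. Control tumors of 66cl4 BALB/c thus spanned 7.62 to 9.34 in the mean level with no knockdown.

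In NSG mice a few tumors carried some of the members. 66cl4 NSG BPTF KD replicate 4 was the highest of its group in 27 of 37 members, with *Mylpf* at 9.75, *Myl1* at 9.07 and *Mb* at 8.73. Control replicate 2 was the highest of its group in 26, with *Mylpf* at 8.75 and *Acta1* at 8.29. That control also held the highest levels of the skin genes *Krt10* (10.84), *Krt1* (8.59) and *Lor* (7.53), which encode keratins and an envelope protein of the upper epidermis, and BPTF KD replicate 4 did not (7.38, 4.51 and 5.58). Their part in the muscle values was not tested. In 67NR NSG, *Acta1* was at 8.61, 5.84 and 8.13 in controls and at 5.73, 6.11 and 8.0 (lowest, median, highest) in BPTF KD tumors, with BPTF KD replicate 2 the highest of its group in 23 members.

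The fast fibre genes were not raised alike in these NSG tumors. *Myh4* was at 4.23 in 66cl4 NSG BPTF KD replicate 4 and at 4.14 in Control replicate 2, within the range of 3.54 to 4.39 in 67NR NSG. In 67NR BALB/c BPTF KD replicate 4 *Mylpf* was lower, at 8.19, and *Myh4* was at 6.92. In 66cl4 BALB/c BPTF KD replicate 2 they were at 8.17 and 4.93. *Pvalb* behaved like *Myh4* in part, at 6.47 and 5.69 in the 2 NSG tumors against 7.46 in the 67NR BALB/c tumor. Over the 12 fast members, 9 were lower and 3 higher in 66cl4 NSG BPTF KD replicate 4 than in 67NR BALB/c BPTF KD replicate 4, and 10 were lower and 2 higher in 66cl4 NSG Control replicate 2. The higher ones in the former were *Mylpf*, *Tnni2* (7.79 against 7.31) and *Atp2a1* (6.17 against 6.10), while *Tnnc2* was nearly level (7.86 against 7.91). No test was run on these 4 tumors, and both they and *Myh4* and *Pvalb* were picked after their values were seen.

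**Figure D4:**
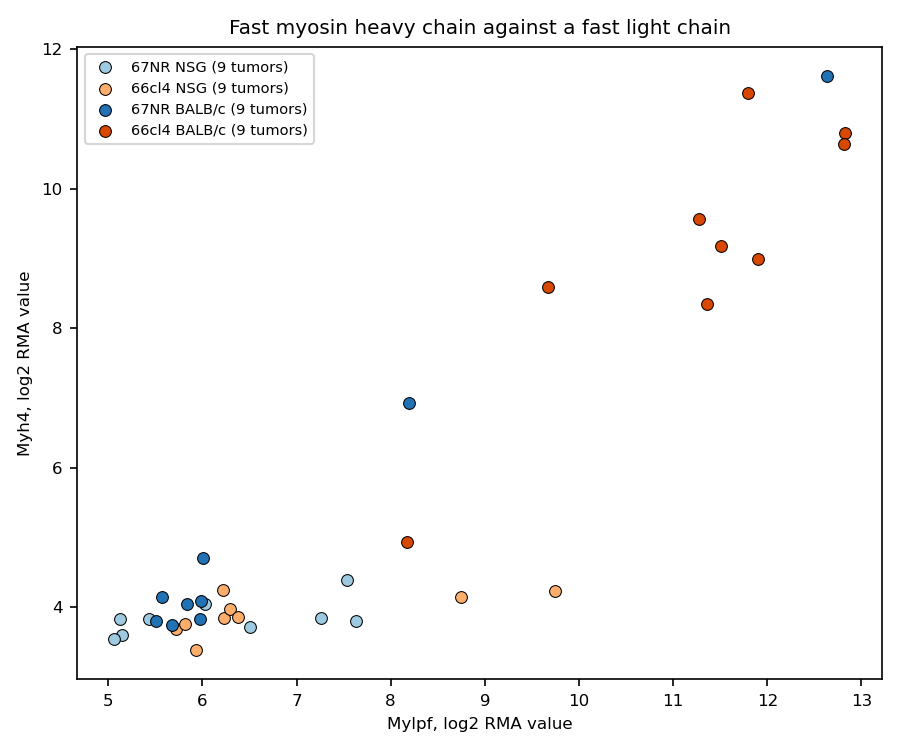
Log2 RMA level of Myh4, the IIb myosin heavy chain, against Mylpf, a fast myosin light chain, with 1 point for each of the 36 tumors coloured by cell line and host. The 18 NSG tumors stay at or below 4.39 in Myh4 although Mylpf reaches 9.75, and the raised BALB/c tumors are high in both.

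Some members departed from the common pattern. *Tpm2* had a correlation of -0.32 with the mean of the other members. In NSG it was at 11.41 to 12.74 in the 9 67NR tumors and at 8.81 to 9.56 in the 9 66cl4 tumors, which did not overlap. In BALB/c it was at 9.91 to 10.72 in 67NR and at 8.79 to 9.87 in 66cl4, again with every 67NR tumor above every 66cl4 tumor. In 67NR BALB/c BPTF KD replicate 3, where the other thin filament members were high, it was at 10.36, within the range of its group. The line difference was 2.74 ± 0.15 in NSG (adjusted p = 8.94e-11) and 1.07 ± 0.14 in BALB/c (adjusted p = 2.83e-05). The BALB/c call was lost with the mean of its 4 probe sets (0.34, adjusted p = 0.238). The share of all genes without overlap between the lines in this direction was not counted. By limma, 24.5% of all genes were called higher in 67NR within NSG and 13% within BALB/c.

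*Casq2* (correlation 0.04) was likewise higher in 67NR, at 6.35 to 7.78 against 5.13 to 6.06 in NSG and at 7.46 to 8.75 against 5.86 to 7.46 in BALB/c. The NSG ranges did not overlap, a pattern not counted over all genes, and the BALB/c ranges touched. Its line difference was 1.49 ± 0.16 and 1.44 ± 0.19 (adjusted p = 3.32e-07 and 2.45e-05), and its host difference was 0.80 in 67NR and 0.85 in 66cl4. The probe set of *Casq2* is of a kind that can bind related transcripts. *Atp2a2* (correlation 0.07) stayed within 10.22 to 11.91 in all tumors.

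*Tnni2* lay higher in NSG tumors of both lines than in 67NR BALB/c controls. It was at 7.22, 7.75 and 6.91 in 67NR NSG controls and at 7.85, 8.54 and 9.33 in BPTF KD tumors, against 5.24, 5.02 and 5.39 in 67NR BALB/c controls, which lay lower without overlap. The 66cl4 NSG controls, at 6.93, 7.63 and 7.01, were at the level of the 67NR NSG controls, and all 9 66cl4 NSG tumors lay at 6.52 to 7.79. In the 67NR NSG tumors *Tnnc2*, its partner in the troponin complex, lay at 4.64 to 6.96. *Tnnt3*, the remaining subunit, lay at 5.35 to 6.66. How many of all genes were lower without overlap in 67NR BALB/c controls was not counted.

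*Myh1* (correlation 0.73) was low in most 66cl4 NSG tumors. In 66cl4 NSG it was at 3.37, 6.96 and 3.82 in controls and at 3.44, 3.91 and 7.70 in BPTF KD tumors, where replicate 4 was the highest. Every 67NR tumor, in either host, lay at 6.17 or above. The line difference was 2.68 ± 0.59 in NSG (adjusted p = 0.000892) and -0.58 ± 0.65 in BALB/c (adjusted p = 0.57). Of its 3 probe sets, a second of the kind that can bind related transcripts had nearly the same range (3.23 to 11.51) and the third was flat (3.96 to 4.46).

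*Eno3* (correlation 0.52) was higher in 66cl4 in both hosts. It ran from 11.02 to 11.52 in 66cl4 NSG and from 9.69 to 10.92 in 67NR NSG, without overlap. The share of all genes with this pattern in NSG was not counted. *Car3* (correlation 0.38) was the member of its role with the widest range, 7.71. It was at 11.02, 5.56 and 9.86 in 67NR NSG controls and at 6.23, 10.77 and 11.90 in BPTF KD tumors, and at 12.39, 10.29 and 8.93 and 9.27, 10.89 and 12.00 in 66cl4 NSG. In BALB/c mice it was at 9.97, 6.89 and 10.64 and 7.86, 11.69 and 13.27 in 67NR, and at 11.31, 12.70 and 10.41 and 10.61, 11.04 and 13.20 in 66cl4. The 4 combinations of line and host overlapped. The 5 tumors with the lowest *Car3* (5.56 to 8.74), all 67NR, were also the 5 with the lowest *Adipoq* (3.47 to 5.22), a hormone gene of fat cells. The next tumors were at 8.93 for *Car3* and 6.27 for *Adipoq*.

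**Figure D5:**
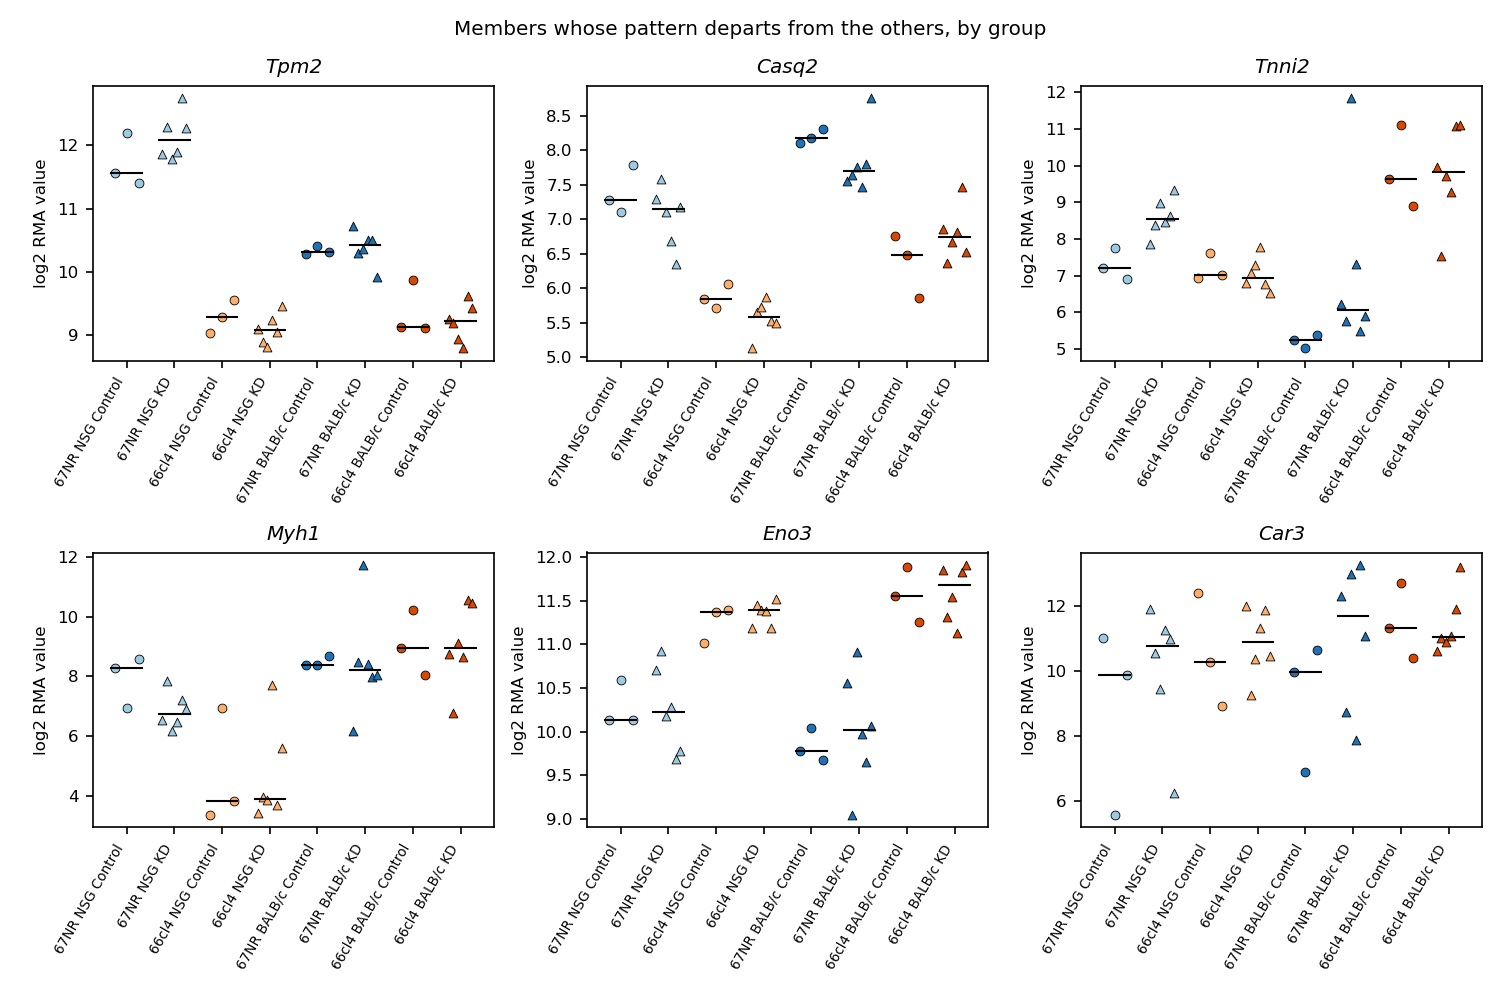
Log2 RMA level of 6 members that departed from the others, in the 8 groups, 1 point per tumor (circles control, triangles BPTF KD) with the group median as a bar. Tpm2 and Casq2 are high in 67NR, Eno3 in 66cl4, Tnni2 in NSG tumors of both lines lies above the 67NR BALB/c controls, Myh1 is low in most 66cl4 NSG tumors and Car3 spreads within groups.

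BPTF KD against control was the comparison for which the study was designed. In none of the 4 line and host combinations did a member pass the limma test. The 67NR BALB/c tumors gave 0 of 37 members called, beside 0% of all genes, and 1 member had an unadjusted p under 0.05. In 67NR NSG 0 were called beside 1.14% of all genes, with 4 members under 0.05 unadjusted. In 66cl4 BALB/c 0 were called beside 0.186% and in 66cl4 NSG 0 beside 0%, with 0 members under 0.05 unadjusted in each. Of all 12394 genes, 961, 1751, 3193 and 952 had an unadjusted limma p under 0.05 in these 4 combinations, in the order named. The median log2 differences of the members were 0.79, -0.01, -0.03 and 0.05, in that order, beside medians of 0.00, 0.02, 0.03 and 0.01 over all genes. The median of 0.79 in 67NR BALB/c was 0.19 without BPTF KD replicate 3.

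As an example, in 67NR BALB/c *Myl1* was at 5.37, 4.76 and 5.03 in controls and at 5.18, 5.36 and 12.28 in BPTF KD tumors, a difference of 1.88 ± 1.48 (adjusted p = 0.768). *Tnnc2* was at 4.72, 4.59 and 4.59 and at 4.43, 4.81 and 13.27, a difference of 1.99 ± 1.82 (adjusted p = 0.802). *Smpx* was at 3.37, 3.46 and 3.41 and at 3.53, 4.03 and 9.63, and *Pvalb* at 6.12, 5.82 and 5.41 and at 5.46, 6.09 and 11.81. In all 4 the medians of the BPTF KD tumors lay within 1 log2 unit of the controls, and replicate 3 was the highest. In 66cl4 BALB/c the same genes differed by 0.23 ± 0.90 (*Myl1*), -0.23 ± 1.01 (*Tnnc2*), 0.61 ± 0.81 (*Smpx*) and 0.44 ± 1.01 (*Pvalb*), each with a standard error above the difference. *Atp2a2* was called in 66cl4 BALB/c, lower by -0.66, in the fit without Control replicate 1 alone.

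*Tnni2* came closest to a call. In 67NR NSG all 6 BPTF KD tumors (7.85, 8.54 and 9.33) lay above all 3 controls (7.22, 7.75 and 6.91). The difference was 1.31 ± 0.29 (limma adjusted p = 0.0601; two-sided exact permutation p = 0.0119 over 84 splits, the smallest they can give). This lack of overlap was seen in 1 of 37 members and in 3.76% of all genes. It passed without BPTF KD replicate 1, BPTF KD replicate 5 or Control replicate 2, with adjusted p-values of 0.0438, 0.0373 and 0.0334, and with the mean of its 3 probe sets (0.80, adjusted p = 0.04). In the other combinations it differed by 1.87 ± 1.25 (67NR BALB/c), -0.10 ± 0.72 (66cl4 BALB/c) and -0.15 ± 0.26 (66cl4 NSG). In 67NR BALB/c all 6 BPTF KD tumors lay above all 3 controls for 4 of 37 members (*Ldb3*, *Ryr1*, *Smpx* and *Tnni2*), beside 3.13% of all genes, and none of the 4 passed the limma test. *Ldb3* was at 5.02, 5.15 and 4.90 in controls and at 5.16, 5.33 and 5.66 in BPTF KD tumors, a difference of 0.34 ± 0.14 (limma adjusted p = 0.637). *Myh1* in 67NR NSG differed the other way, by -1.08 ± 0.40 (adjusted p = 0.246).

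Tests of whether the BPTF KD effect itself differed, by host or by line, called 0 of 37 members in each of 4 interactions. Of all genes, 0% were called between hosts in 67NR, 0% between hosts in 66cl4, 0% between lines in BALB/c and 0.96% between lines in NSG.

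Other genes of the sarcomere and of muscle metabolism followed the members. The genes most like the mean of the members over 36 tumors were *Apobec2*, a muscle protein of the cytidine deaminase family (r = 0.984), *Myf6*, a myogenic regulator of mature fibres (0.965), *Sh3bgr* (0.963), *Cmya5* (0.962), *Tmod4*, which caps thin filaments (0.960), and *Ttn* (0.956). Next came *Rtn2*, *Lmod2*, *Pdlim3*, *Sln* (sarcolipin, a regulator of the calcium pump), *Ndrg2*, *Itgb1bp2*, *Cap2*, *Rpl3l* and *Cox6a2*, from 0.949 to 0.928. Over the 27 tumors without 66cl4 BALB/c, these 15 had correlations of 0.844 to 0.968. The 27 still held 67NR BALB/c BPTF KD replicate 3, with a member mean of 10.0 against at most 6.85 in the others. This 1 tumor can therefore set these correlations, and they do not show likeness among the rest.

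*Ttn* was at 5.97, 7.48 and 5.92 in 66cl4 BALB/c controls and at 5.13, 6.94 and 8.07 in BPTF KD tumors, against 4.44 to 5.20 in 66cl4 NSG, where it differed by 1.93 ± 0.33 (adjusted p = 0.000501). Of 70 further sarcomere and muscle genes 50 were measured, and in 66cl4 34 of them were higher in BALB/c and 0 lower, beside the 16.1% of all genes. Those with the widest ranges, *Sln*, *Asb5* (a muscle ubiquitin ligase subunit), *Ttn* and *Trdn* (triadin, which anchors calsequestrin), differed by 3.14, 2.23, 1.93 and 1.32. Within 67NR, 5 of the 50 were higher and 1 lower in BALB/c, beside 10.3% and 8.08% of all genes.

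Genes of muscle formation moved in part. Of 17 measured myogenic regulators and genes of developing muscle, 5 were higher and 0 lower in 66cl4 BALB/c (16.1% and 15.1% of all genes). The median log2 difference over the 17 was 0.10. Those called were *Myf6* (1.87 ± 0.36), *Myog* (0.99 ± 0.21), *Ncam1* (0.50 ± 0.15), *Chrna1* (0.47 ± 0.10) and *Myh3* (0.24 ± 0.09). These encode a regulator of mature fibres, a regulator of fusing myoblasts, an adhesion molecule, an acetylcholine receptor subunit and the embryonic heavy chain. Over all tumors *Myf6* and *Myog* followed the mean of the members, with correlations of 0.965 and 0.872. *Ncam1*, *Chrna1* and *Myh3* did not, at 0.076, -0.136 and 0.164. *Myod1*, the regulator of committed myoblasts, lay at 4.81 to 4.95 in 66cl4 NSG and 4.73 to 5.23 in 66cl4 BALB/c, and *Pax7*, the satellite cell factor, at 3.79 to 4.34 and 3.80 to 4.17. Both lay within the range of the genes of tissues not sampled and were chosen after their values were seen.

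Of 11 heart genes 3 were higher and 0 lower in 66cl4 BALB/c, beside the 16.1% and 15.1% of all genes. They were *Myl4*, an atrial and embryonic light chain (1.26 ± 0.32, adjusted p = 0.00643), *Tnnt2*, cardiac troponin T (1.04 ± 0.36, adjusted p = 0.035), and *Nkx2-5*, a cardiac transcription factor (0.23 ± 0.06, adjusted p = 0.00536). *Myl4* had a median of 6.10 in 66cl4 NSG and 8.12 in 66cl4 BALB/c, and its correlation with the mean of the members was 0.745. *Nppb*, a natriuretic peptide and the widest of the list, differed by -0.01 ± 0.11 (adjusted p = 0.957). *Myh6*, the atrial heavy chain, which with *Nkx2-5* was chosen after values were seen, lay at 3.39 to 3.67 in 66cl4 BALB/c and 3.35 to 3.67 in 66cl4 NSG. Of 11 smooth muscle and pericyte genes 4 were higher and 0 lower in 66cl4 BALB/c, with a mean level of 6.66 to 6.99 in NSG and 6.81 to 7.43 in BALB/c.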

How the data were processed

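RNA from 36 tumors (500 ng each) was hybridised to Affymetrix mouse arrays, and the authors deposited log2 values after robust multi-array averaging (RMA), whose version is not given in the sources used here. Of 22690 probe sets, 20393 had 1 gene symbol in the platform annotation, 691 had several and 1606 had none. Among the probe sets of a gene with 1 symbol, that with the highest mean was used, which gave 12394 genes. Differences were fitted over all genes with limma (3.58.1, R 4.3.3), by group for each comparison, with Benjamini-Hochberg adjustment and a threshold of 0.05. Single members were also tested with an exact permutation test over tumors. The code was tested on simulated data.

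The members and lists were chosen with earlier results of these data known. All members could be named, in full those with the widest range in each role and those called. Other genes were named if among the 15 most like the mean of the members or the 4 widest of a list, or if noted as chosen later. Alternatives were the methods' t-test, a fit of all 36 tumors, the mean of all probe sets, a filter on dim genes, array medians subtracted, a replicate block and leaving out each tumor. Replicate numbers come from the labels, and correlations of same-numbered deviations ran from -0.451 to 0.268, so that the numbers did not pair tumors. The number of arrays limits the precision.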

Additional observations from a re-analysis of the deposited data

Results flagged for a closer look

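In each group of 6 BPTF KD tumors, the gap between the most extreme tumor and its neighbour was divided by the range of the group. Over 37 members and their mean this was done 152 times, and 45 gaps were larger than chance gives in about 1 of 20 groups. In 67NR BALB/c BPTF KD replicate 3 25 such gaps were found, always as the highest tumor, with shares of the range of 0.682 for *Actn2*, 0.754 for *Actn3*, 0.834 for *Atp2a1*, 0.898 for *Casq1*, 0.726 for *Ckm*, 0.773 for *Ckmt2*, 0.858 for *Des*, 0.654 for *Mb* and 0.803 for *Myh2*. In the same tumor the shares were 0.877 for *Myh7*, 0.868 for *Myl2*, 0.639 for *Mylpf*, 0.817 for *Myoz1*, 0.754 for *Myoz2*, 0.791 for *Myot*, 0.849 for *Pgam2*, 0.685 for *Pvalb* and 0.922 for *Pygm*. In the same tumor the shares were 0.828 for *Tcap*, 0.856 for *Tnnc1*, 0.713 for *Tnni2*, 0.695 for *Tnnt1*, 0.721 for *Tnnt3*, 0.798 for *Smpx* and 0.792 for the mean over the 37 members. In 66cl4 NSG BPTF KD replicate 4 10 were found, always as the highest tumor, with shares of the range of 0.819 for *Acta1*, 0.676 for *Ckm*, 0.725 for *Ckmt2*, 0.811 for *Mb*, 0.891 for *Myl1*, 0.836 for *Mylpf*, 0.742 for *Myot*, 0.845 for *Tnnc2* and 0.857 for *Smpx*. Its share was 0.775 for the mean over the 37 members. In 66cl4 BALB/c BPTF KD replicate 2 4 were found, always as the lowest tumor, with shares of the range of 0.65 for *Myl1*, 0.685 for *Mylpf*, 0.636 for *Myot* and 0.656 for *Tnnc2*. In 67NR NSG BPTF KD replicate 2 3 were found, always as the highest tumor, with shares of the range of 0.634 for *Ckm*, 0.758 for *Myot* and 0.765 for *Smpx*. 66cl4 NSG BPTF KD replicate 1 was the lowest tumor for *Ldb3*, with a share of 0.667. 67NR BALB/c BPTF KD replicate 6 was the highest tumor for *Casq2*, with a share of 0.736. 67NR NSG BPTF KD replicate 1 was the lowest tumor for *Myl3*, with a share of 0.769. The members of 1 tumor share its RNA, so that these gaps are not independent.

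The host effect (BALB/c minus NSG, log2) differed between the lines, as 66cl4 minus 67NR in the limma fit, for 23 members. The differences were 5.34 for *Acta1*, 5.27 for *Tnnc2*, 5.25 for *Myl1*, 4.51 for *Tnni2*, 4.41 for *Myh4*, 4.11 for *Mylpf*, 4.09 for *Tnnt3* and 3.55 for *Smpx*. Further differences were 3.46 for *Ckm*, 3.41 for *Myot*, 3.27 for *Myh1*, 3.23 for *Mb*, 2.84 for *Pvalb*, 2.46 for *Ckmt2*, 2.44 for *Actn3* and 1.85 for *Tnnc1*. Further differences were 1.77 for *Pgam2*, 1.74 for *Atp2a1*, 1.67 for *Tcap*, 1.67 for *Tpm2*, 1.25 for *Myoz2*, 1.22 for *Des* and 0.642 for *Ldb3*. For *Tpm2* the effect was near 0 in 66cl4 and below 0 in 67NR.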

How the results depend on the processing

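A number of called members counted as kept if it was near the reported number or if both were 0. A median difference counted as kept if it moved by less than the spread between tumors of a group, so that its sign could change. In 67NR BALB/c this spread includes BPTF KD replicate 3. Of 166 comparisons of other settings with the reported values, 164 were kept in this sense and 2 were not. In 67NR NSG, BPTF KD against control called 1 member (*Tnni2*) with the mean of all probe sets of a gene instead of 0. Within 67NR, BALB/c against NSG called 6 members without 67NR BALB/c BPTF KD replicate 3, instead of 2. Leaving out each tumor in turn gave 0 to 1 called members for BPTF KD in 67NR NSG and in 66cl4 BALB/c, and 0 in 67NR BALB/c and 66cl4 NSG. The same runs gave 32 to 35 for host within 66cl4, 2 to 6 for host within 67NR, 14 to 33 for the difference of the host effect, 19 to 34 for line within BALB/c and 9 to 12 for line within NSG. Median BPTF KD differences ran from 0.19 to 0.98 (67NR BALB/c), -0.08 to 0.04 (67NR NSG), -0.40 to 0.49 (66cl4 BALB/c) and -0.10 to 0.21 (66cl4 NSG). With the replicate block, 0 members were called in each BPTF KD comparison, with medians of 1.41, 0.01, -0.52 and -0.12 in the same order. The methods' t-test and the fit of all 36 tumors called 0 members in each. Members at the level of genes of tissues not sampled have little signal over background, which limits differences in NSG tumors.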
